A study of Mus musculus with 16 samples.

Results

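The sirtuins Sirt1 to Sirt7 were followed in pancreatic islets and hepatocytes of mice, both primary cells in culture, with and without the drug FK866. Members were chosen by symbol. Of the 7 symbols, 6 had a row among the 18111 symbols of the deposited gene table, and they were carried by 9 of its 23925 named probes; Sirt4 was not analysed here. RNA was measured on 16 Illumina bead arrays in 4 groups of 4, all from cells of wild type B6 mice cultured for 48 h: islets with 10 nM FK866, islets with 0.1% DMSO as control, hepatocytes with 200 nM FK866, and hepatocytes with 0.1% DMSO as control. FK866 inhibits NAMPT. The labels give neither the age of the mice nor whether replicates came from separate animals or cultures, so every p-value below reflects the spread among these 16 samples alone, part of which may be technical.

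Sirtuins remove acyl groups from lysines and use up NAD in doing so, which ties their activity to the NAD supply of the cell. NAMPT makes the NAD precursor nicotinamide mononucleotide from the nicotinamide that sirtuins release. SIRT1, SIRT6 and SIRT7 are mostly nuclear, SIRT2 is mostly cytosolic, and SIRT3, SIRT4 and SIRT5 are mitochondrial. In liver the family is known for its part in fasting metabolism, and in islets SIRT1 is known to favour insulin secretion. The arrays measured their RNA, not their activity.

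The labelled tissues carried their markers. Of 16 hepatocyte markers measured, 15 were detected in hepatocytes, and of 15 beta cell markers 14 were detected in islets. In hepatocytes 10 of these beta cell markers were detected on no FK866 array and 8 on no control array, Ins2 and Pdx1 among them. In each islet group 5 of the hepatocyte markers were detected. Between control tissues 14 of 15 hepatocyte markers tested were called lower in islets and 1 higher. Between FK866 tissues 12 of 14 beta cell markers tested were called higher in islets and 1 lower. All 12 acinar markers were detected on some control islet array, and 7 on some FK866 islet array. Markers of other cells also differed between control tissues. Fibroblast and stellate markers summed to 12733 to 17131 in hepatocytes and 2474 to 5561 in islets, with 5 of 10 tested called lower in islets and 1 higher. Of 8 duct and cholangiocyte markers 6 were lower and 1 higher, of 9 macrophage markers 2 and 7, and of 9 endothelial markers 3 and 2. Of all genes tested, 31.1% were called lower and 35.0% higher. Both islet arrays numbered 2 stood apart. Their median probe signal was 18.0 with FK866 and 15.4 in the control, against 26.9 to 33.1 on the other 14 arrays. Their median correlation with the other arrays of the tissue was 0.920 and 0.838, against 0.975 to 0.993 elsewhere. On these arrays the 15 fibroblast and stellate markers summed to a signal of 4072 with FK866 and 5561 in the control, against 2229 to 3156 and 2474 to 3126 on the other islet arrays of the same group, while Lox, Lum, Pdgfra and Tagln were detected on no islet array. The 12 endothelial markers summed to 10469 and 10336 there, against 5983 to 8172 and 5410 to 6196, with Cdh5, Kdr, Tie1 and Vwf detected on no islet array. Some sums were lower there. Alpha, delta and PP cell markers summed to 174516 and 207834, against 221301 to 231522 and 238535 to 252966. Acinar and hepatocyte markers also summed lower in both groups, duct markers in the control alone and macrophage markers with FK866 alone. Beta cell markers stayed within the range of the others. The part of these cell types in the values below was not tested, so the sirtuin comparisons and the gene list counts are also given without the 4 arrays numbered 2. In cultures of mixed cells, fewer cells of a type and less RNA per cell cannot be told apart.

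Values are log2 signals after background correction and quantile normalization over all 16 arrays, and a gene with several probes is given by its brightest probe. Each probe is set only against itself, since brightness differs between probes for reasons other than RNA level. Probes of Sirt1, Sirt2, Sirt3, Sirt5 and Sirt7 were detected on all 16 arrays (detection p under 0.05). The Sirt6 probe lay near background, detected on all 8 islet arrays and on 6 of 8 hepatocyte arrays. Differences between groups were tested with limma across all genes detected on at least 4 arrays, and a gene is called where its Benjamini-Hochberg adjusted p is under 0.05.

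**Figure D1:**
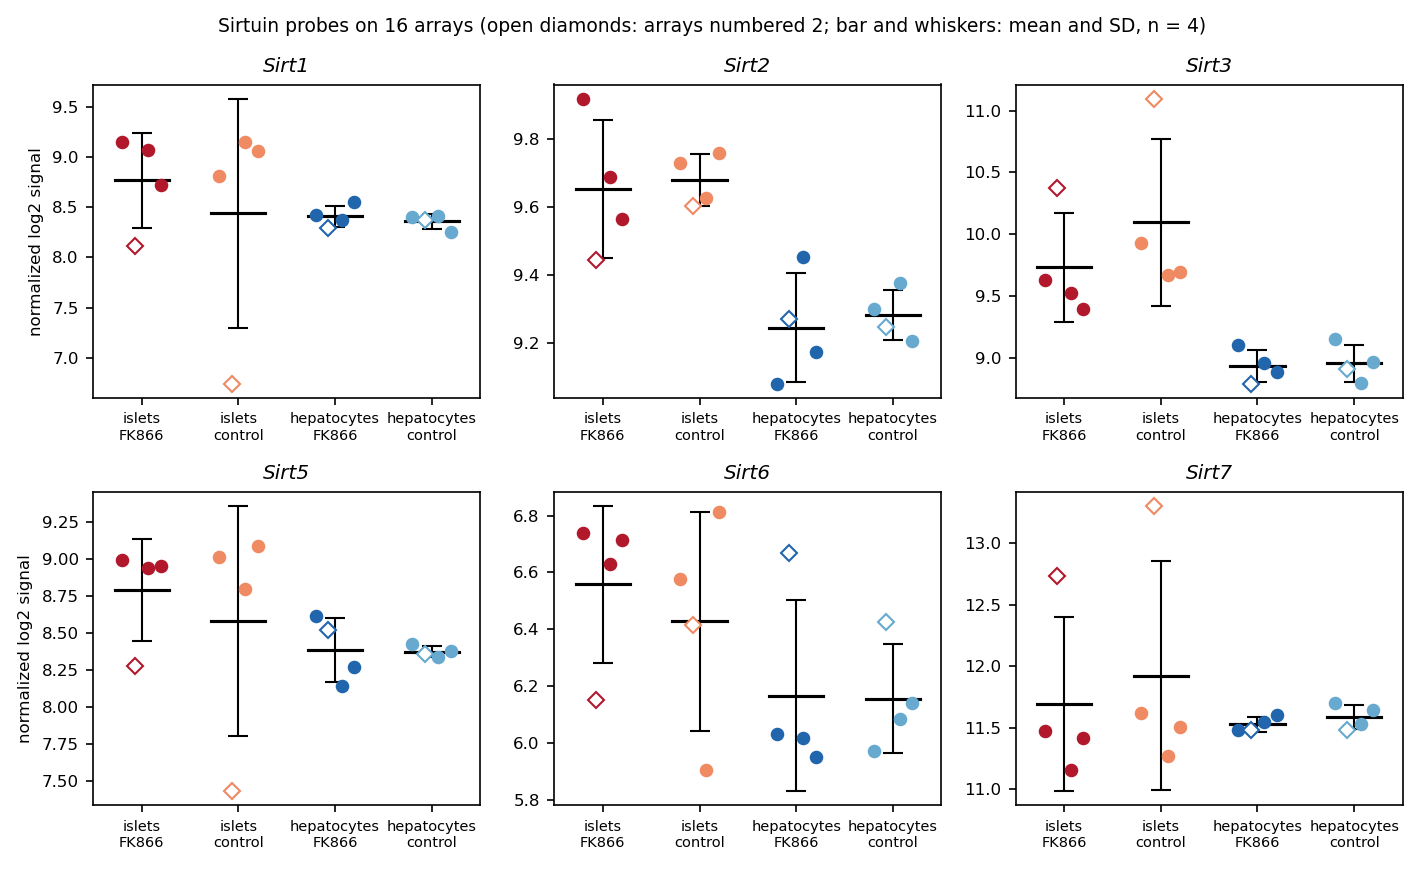
Normalized log2 signal (vertical axis, a separate range for each gene) of the 6 measured sirtuins on each of the 16 arrays, with the mean and SD of each group of 4 and the arrays numbered 2 as open diamonds. Sirt3 is higher on every islet array than on every hepatocyte array, and the islet diamonds lie far below the other islet points for Sirt1 and Sirt5 and far above them for Sirt3 and Sirt7.

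Sirt3 and Sirt2 were higher in islets than in hepatocytes. Among untreated cells Sirt3 was 2.21-fold higher (95% interval 1.47 to 3.32) and Sirt2 1.32-fold higher (1.09 to 1.59), while Sirt1, Sirt5, Sirt6 and Sirt7 did not pass the test. A tissue difference was the rule on these arrays: 66.0% of the 10046 genes tested were called between control islets and control hepatocytes, 35.0% as higher in islets and 31.1% as lower. The 2 of 6 sirtuins called higher are therefore near the background share. With FK866, 63.0% of genes were called, 33.8% as higher, and the same sirtuins, Sirt3 and Sirt2, were the ones called.

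Sirt3 encodes the main deacetylase of the mitochondrial matrix, which acts on enzymes of fatty acid oxidation. Its log2 signal was 9.63, 10.38, 9.53 and 9.40 on FK866 islet arrays, 9.93, 11.10, 9.67 and 9.70 on control islet arrays, 9.10, 8.79, 8.96 and 8.89 on FK866 hepatocyte arrays, and 9.15, 8.91, 8.79 and 8.96 on control hepatocyte arrays. All 8 islet values lay above all 8 hepatocyte values, and array 2 was the highest of each islet group. Array 2 held that rank only after normalization. Its deposited Sirt3 signal was 1078 in control islets and 812.82 in FK866 islets, against 1186.01 and 823.25 on array 3. Within a treatment, with 4 arrays against 4, 31.7% of all genes tested lay wholly above in control islets and 34.9% in FK866 islets. A share for all 8 against all 8 was not taken. The means were 10.10 ± 0.67 in control islets and 8.95 ± 0.15 in control hepatocytes (SD, n = 4 each), a log2 difference of 1.14 (SE 0.28, limma adjusted p = 0.00182). Between the FK866 groups the log2 difference was 0.80 (SE 0.28, limma adjusted p = 0.0197). Without the arrays numbered 2 it was smaller and more precise, at 0.79 (SE 0.12, limma adjusted p = 6.02e-05) for the controls and 0.53 (SE 0.12, limma adjusted p = 0.00153) with FK866. The 2-sided exact permutation test gave p = 0.0286 in both comparisons of all arrays, the smallest it can give for 4 against 4. In 3 of the 12 fits that left out arrays the FK866 comparison was no longer called: Sirt3 missed the threshold without FK866 islet array 2 (limma adjusted p = 0.0716), without all arrays numbered 1 (0.0601) and without all numbered 3 (0.0537).

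Sirt2 encodes the cytosolic deacetylase known for acting on tubulin. Its log2 signal was 9.92, 9.45, 9.69 and 9.57 on FK866 islet arrays, 9.73, 9.60, 9.63 and 9.76 on control islet arrays, 9.08, 9.27, 9.45 and 9.18 on FK866 hepatocyte arrays, and 9.30, 9.25, 9.38 and 9.21 on control hepatocyte arrays. The control groups did not overlap, whereas with FK866 the lowest islet array fell just below the highest hepatocyte array. Control islets averaged 9.68 ± 0.08 and control hepatocytes 9.28 ± 0.07 (SD, n = 4 each), a log2 difference of 0.40 (SE 0.13, limma adjusted p = 0.0122). With FK866 the log2 difference was 0.41 (SE 0.13, limma adjusted p = 0.0107). Sirt2 was the sirtuin least moved by the arrays numbered 2, and without them the log2 differences were 0.41 and 0.48 for the controls and with FK866 (limma adjusted p = 0.00919 and 0.00329). Sirt2 no longer passed where arrays were scaled to their median only; there the log2 differences were 0.41 and 0.38 (limma adjusted p = 0.107 and 0.138). It also missed the threshold in 1 of 12 fits that left out arrays among controls, without those numbered 4 (limma adjusted p = 0.109), and in 2 of 12 with FK866, without those numbered 1 (0.152) or 4 (0.0629). The 2-sided exact permutation test of the FK866 groups gave p = 0.0571.

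Sirt2 and Sirt3 both have a start head to head with a gene of the opposite strand, so that each shares a short stretch of promoter with a neighbour. Among the RefSeq promoter windows of the 6 measured sirtuins, those of these starts were the ones that overlapped the window of another gene. Sirt3 has another RefSeq window, which overlapped none and is not shown. Both stretches were read from the RefSeq promoter table of build GRCm38.p6. They are shown because they are all that separates this start of each called sirtuin from the start of its neighbour. The Sirt3 stretch lies on the minus strand at chr7:140882310-140882393, 84 bases up to the start of Psmd13, and the Sirt2 stretch on the plus strand at chr7:28766645-28766751, 107 bases up from the start of Nfkbib. Each is written 5′ to 3′ towards the sirtuin, and capitals mark the parts of the motif known for the promoter factor ZNF143 that were found.
Sirt3: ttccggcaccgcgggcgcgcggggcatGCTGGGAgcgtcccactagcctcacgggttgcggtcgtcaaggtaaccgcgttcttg
Sirt2: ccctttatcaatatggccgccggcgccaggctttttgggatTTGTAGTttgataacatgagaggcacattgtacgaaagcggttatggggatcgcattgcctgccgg

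The Sirt3 stretch held GCTGGGA, which 3.22% of all 32851 promoters hold, on either strand, in the 84 bases before their start. The Sirt2 stretch held TTGTAGT, which 1.34% of them hold in the 107 bases before their start. These pieces of the motif were searched after the sequences had been read, they do not overlap each other, and a match is not a site. Neither stretch held the piece found in the other. Searches of both strands for the E-box CACGTG, the CCAAT box CCAAT, the GC box GGGCGG and the ETS motif CGGAAG found none of these letters in either stretch.

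The neighbours did not both follow their sirtuin. Psmd13, a subunit of the proteasome cap, averaged 12.08 ± 0.24 in control islets and 13.01 ± 0.08 in control hepatocytes (SD, n = 4 each), a log2 difference of -0.93 (SE 0.14, limma adjusted p = 2.45e-05), opposite in sign to that of Sirt3. Nfkbib, an inhibitor of NF-kB, averaged 7.40 ± 0.73 in control islets and 5.83 ± 0.20 in control hepatocytes (SD, n = 4 each), a log2 difference of 1.57 (SE 0.29, limma adjusted p = 0.000160), and was detected on 4 of 4 and 1 of 4 of these arrays, so that its hepatocyte level lay near background. Without the arrays numbered 2 the log2 differences were -1.08 for Psmd13 and 1.27 for Nfkbib. Both genes were singled out as neighbours after the sirtuin values had been seen.

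**Figure D2:**
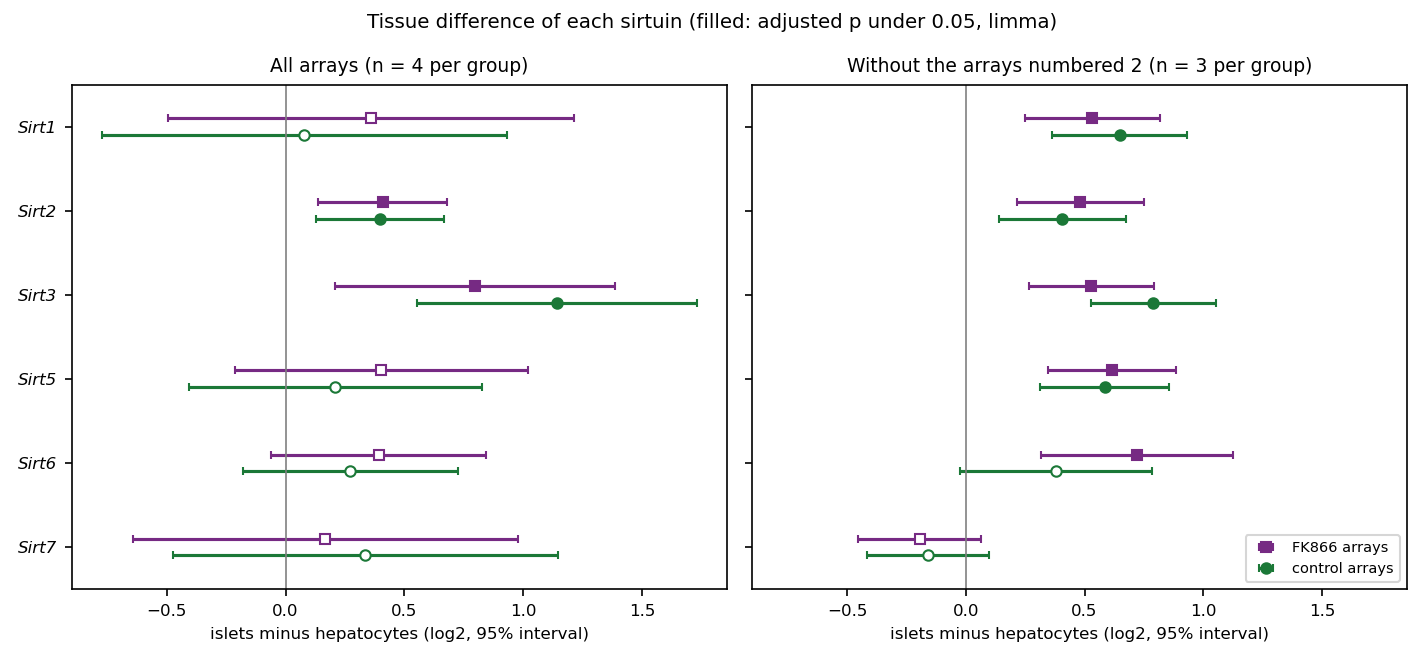
Islet minus hepatocyte log2 difference (horizontal axis, with 95% interval from limma) of each sirtuin for FK866 arrays (squares) and control arrays (circles), from all arrays on the left and without the arrays numbered 2 on the right; filled symbols have an adjusted p under 0.05. Sirt2 and Sirt3 are filled on the left, while on the right Sirt1 and Sirt5 are filled as well, Sirt6 is filled for FK866 arrays, and Sirt7 lies below 0.

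For Sirt1 and Sirt5 the comparison of tissues turned on array 2. Sirt1 encodes the nuclear deacetylase that acts on PGC-1alpha, FOXO factors and p53. Its log2 signal was 9.15, 8.12, 9.07 and 8.72 on FK866 islet arrays, 8.82, 6.74, 9.15 and 9.06 on control islet arrays, 8.42, 8.29, 8.37 and 8.55 on FK866 hepatocyte arrays, and 8.40, 8.38, 8.42 and 8.25 on control hepatocyte arrays. The other 6 islet arrays lay above all 8 hepatocyte arrays, and both islet arrays numbered 2 lay below all of them. With all arrays the log2 difference was 0.08 (SE 0.40, limma adjusted p = 0.867) between controls and 0.36 (SE 0.40, limma adjusted p = 0.455) with FK866. With the arrays numbered 2 left out it was 0.65 (SE 0.13, limma adjusted p = 0.000584) and 0.53 (SE 0.13, limma adjusted p = 0.00247).

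Sirt5 encodes the mitochondrial enzyme that removes succinyl, malonyl and glutaryl groups and is known to activate the urea cycle enzyme CPS1. Its log2 signal was 8.99, 8.28, 8.94 and 8.95 on FK866 islet arrays, 9.01, 7.44, 8.80 and 9.08 on control islet arrays, 8.61, 8.52, 8.15 and 8.27 on FK866 hepatocyte arrays, and 8.42, 8.36, 8.34 and 8.37 on control hepatocyte arrays. As for Sirt1, the 6 other islet arrays lay above every hepatocyte array. Within a treatment and without the arrays numbered 2, 41.1% of genes had all 3 islet arrays above all 3 hepatocyte arrays among controls, and 43.4% with FK866. A share for 6 islet arrays against every hepatocyte array was not taken. The log2 difference was 0.21 (SE 0.29, limma adjusted p = 0.536) between controls and 0.40 (SE 0.29, limma adjusted p = 0.241) with FK866, against 0.58 (SE 0.12, limma adjusted p = 0.000899) and 0.62 (SE 0.12, limma adjusted p = 0.000624) without the arrays numbered 2. A dimmer probe of Sirt5 differed less. Its log2 difference between controls was -0.05 with all arrays and 0.17 without the arrays numbered 2 (limma adjusted p = 0.129), and with FK866 it was 0.08 and 0.23 (limma adjusted p = 0.046 for the last).

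Sirt6 encodes a chromatin deacetylase known for repressing glycolytic genes and for its part in DNA repair. On this dim probe the log2 signal was 6.74, 6.15, 6.63 and 6.71 on FK866 islet arrays, 6.58, 6.41, 5.90 and 6.81 on control islet arrays, 6.03, 6.67, 6.02 and 5.95 on FK866 hepatocyte arrays, and 5.97, 6.42, 6.08 and 6.14 on control hepatocyte arrays. The groups overlapped in both comparisons. The log2 difference between islets and hepatocytes was 0.27 (SE 0.21, limma adjusted p = 0.272) for controls and 0.39 (SE 0.21, limma adjusted p = 0.123) with FK866, and 0.38 (SE 0.19, limma adjusted p = 0.0799) and 0.72 (SE 0.19, limma adjusted p = 0.00351) without the arrays numbered 2. Among controls a further probe gave 1.04 (limma adjusted p = 0.00927) and another 0.16 (limma adjusted p = 0.723), so the 3 probes of Sirt6 shared a sign and not a call. With the mean of its probes Sirt6 was called in both comparisons, at 0.49 among controls (limma adjusted p = 0.0187) and 0.44 with FK866 (limma adjusted p = 0.0328).

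Sirt7 encodes the nucleolar sirtuin that favours transcription by RNA polymerase I. Its log2 signal was 11.48, 12.74, 11.15 and 11.42 on FK866 islet arrays, 11.62, 13.30, 11.27 and 11.50 on control islet arrays, 11.48, 11.48, 11.55 and 11.60 on FK866 hepatocyte arrays, and 11.70, 11.48, 11.53 and 11.64 on control hepatocyte arrays. Apart from the islet arrays numbered 2, the values of all 4 groups lay close together. With FK866 and without the arrays numbered 2, all islet values lay below all hepatocyte values, though narrowly (11.475 at the highest against 11.479 at the lowest). The share of all genes lying wholly below in this way is not given here. The log2 difference between islets and hepatocytes was 0.34 (SE 0.38, limma adjusted p = 0.448) for controls and 0.17 (SE 0.38, limma adjusted p = 0.720) with FK866. Leaving out the arrays numbered 2 gave both estimates the opposite sign, at -0.16 (SE 0.12, limma adjusted p = 0.237) and -0.19 (SE 0.12, limma adjusted p = 0.154), with 95% intervals of -0.42 to 0.10 and -0.45 to 0.06.

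The sirtuins called between tissues without the arrays numbered 2 were thus 4 of 6 among controls (Sirt1, Sirt2, Sirt3 and Sirt5) and 5 of 6 with FK866 (also Sirt6), all higher in islets. The background also grew, to 76.3% of 9816 genes called among controls, 41.2% as higher, and to 75.1% with FK866, 40.9% as higher. The median log2 difference of the 6 sirtuins was 0.50 and 0.53 in these fits, against a median over all genes of 0.09 in both. With all arrays it was 0.30 among controls and 0.40 with FK866, against 0.08 over all genes in both.

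The islet arrays numbered 2 moved the sirtuins in opposite directions. On the scale normalized within islets, Sirt7 on array 2 exceeded the mean of the other 3 arrays by 1.35 with FK866 and 1.83 in the control, and Sirt3 by 0.85 and 1.31. Sirt1 differed from that mean by -0.87 and -2.28 and Sirt5 by -0.68 and -1.53. Sirt2, at -0.27 and -0.10, and Sirt6, at -0.55 and -0.02, moved least. Such shifts were common on these arrays. The median size over the 8904 genes tested was 0.56 with FK866 and 0.83 in the control, 6.1% of genes moved at least as far as Sirt1 on the control array, and 13.4% at least as far as Sirt7.

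**Figure D3:**
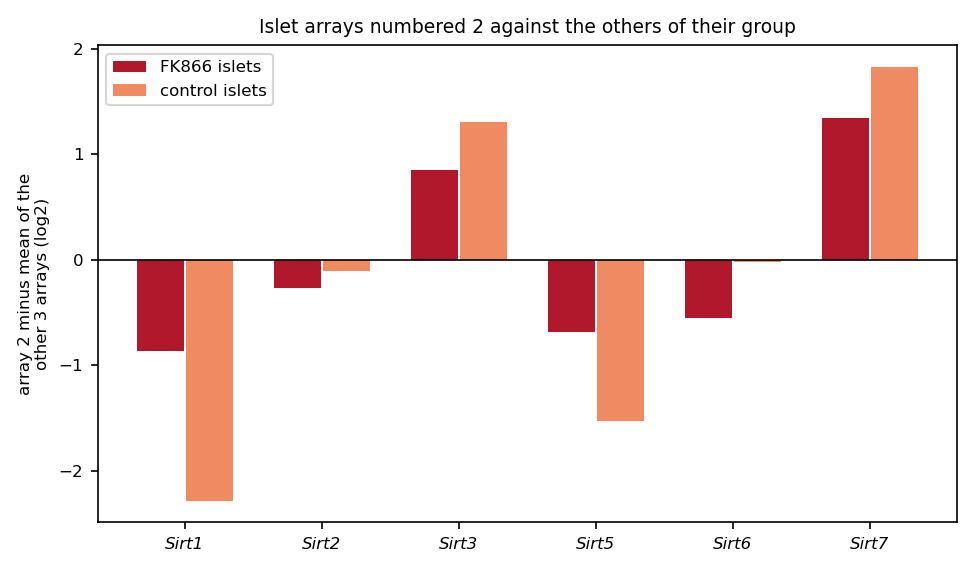
Log2 signal of each sirtuin on islet array 2 minus the mean of the other 3 arrays of its group (vertical axis), for FK866 islets and control islets. Sirt3 and Sirt7 are above 0 and Sirt1 and Sirt5 below 0 in both groups, with the larger shift on the control array for each of these 4 genes.

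In the fit without a block, FK866 changed no sirtuin past the threshold in either tissue, and no other gene either. In hepatocytes limma called 0 of 8545 genes (0%), with 145 at an unadjusted p under 0.05 and no sirtuin among them. In islets it called 0 of 8904 genes (0%), with 121 at an unadjusted p under 0.05 and again no sirtuin among them. With same-numbered arrays as pairs in a block, limma again called no sirtuin. It then called 0 genes in hepatocytes and 4 in islets, with 531 and 1032 at an unadjusted p under 0.05, Sirt3 in islets among them. The FK866 groups and their controls overlapped for all 6 sirtuins in both tissues, where 1.08% of hepatocyte genes and 1.66% of islet genes did not overlap.

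The hepatocyte estimates were all close to 0 and the intervals narrow. With FK866 minus control on the scale normalized within hepatocytes, Sirt1 differed by 0.05 (95% interval -0.14 to 0.24), Sirt2 by -0.04 (-0.25 to 0.18) and Sirt3 by -0.02 (-0.25 to 0.21). Sirt5 differed by 0.01 (-0.23 to 0.26), Sirt6 by 0.01 (-0.36 to 0.38) and Sirt7 by -0.06 (-0.24 to 0.12), and the limma adjusted p was 1 for all 6. As folds, the intervals of the 5 detected on all arrays ran from 0.839 to 1.20 at their widest, so a doubling or a halving of any of these 5 in hepatocytes lies outside them. The 6 estimates lay between -0.08 and 0.09 without the arrays numbered 2. The targeted gene Nampt, whose enzyme FK866 blocks, differed by -0.09 (SE 0.12) in hepatocytes and by 0.11 (SE 0.18) in islets.

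The islet intervals were wider than the hepatocyte ones for all 6. Sirt1 differed by 0.33 (-0.89 to 1.56), Sirt2 by -0.02 (-0.40 to 0.35), Sirt3 by -0.36 (-1.18 to 0.46), Sirt5 by 0.21 (-0.66 to 1.08), Sirt6 by 0.13 (-0.42 to 0.69) and Sirt7 by -0.23 (-1.37 to 0.91), all with limma adjusted p = 1.00. These intervals hold a doubling of Sirt1 and Sirt5 and a halving of Sirt3 and Sirt7. With same-numbered arrays as pairs in a block they were narrower, at -0.27 to 0.93 for Sirt1, -0.20 to 0.62 for Sirt5, -0.68 to -0.04 for Sirt3 and -0.55 to 0.09 for Sirt7, and held none of these. The islet pairing behind this block is an assumption. With the arrays numbered 2 left out, the islet estimates of Sirt1 and Sirt5 were -0.02 (-0.39 to 0.34) and 0.00 (-0.28 to 0.27), and both had been positive with all arrays. Those of Sirt2, Sirt6 and Sirt7 were then 0.02 (-0.28 to 0.32), 0.28 (-0.28 to 0.84) and -0.11 (-0.44 to 0.22).

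The same-numbered arrays of a tissue deviated together from their group means and are read here as pairs, although FK866 islet array 3 correlated more with control arrays 4 and 1 than with control array 3. Some islet arrays of different number also passed the 0.1 set for pairing, so the islet pairs are an assumption. Sirt3 was lower with FK866 in all 4 islet pairs, by -0.29, -0.70, -0.15 and -0.30 on the log2 scale, and Sirt7 in all 4 as well, by -0.14, -0.59, -0.11 and -0.08. Of all islet genes tested, 12.0% were lower in all 4 pairs. In the fit with the pairs as a block the Sirt3 interval was -0.68 to -0.04 (unadjusted p = 0.0315, limma adjusted p = 0.386), so it did not pass, and 4 islet genes did, none a sirtuin. Without the arrays numbered 2 the log2 difference of Sirt3 was -0.24 (-0.54 to 0.05, limma adjusted p = 0.818), and its 3 FK866 arrays lay below its 3 control arrays, as for 7.63% of islet genes. In hepatocytes the Sirt3 pairs differed by -0.05, -0.12, 0.16 and -0.08, with no shared sign.

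**Figure D4:**
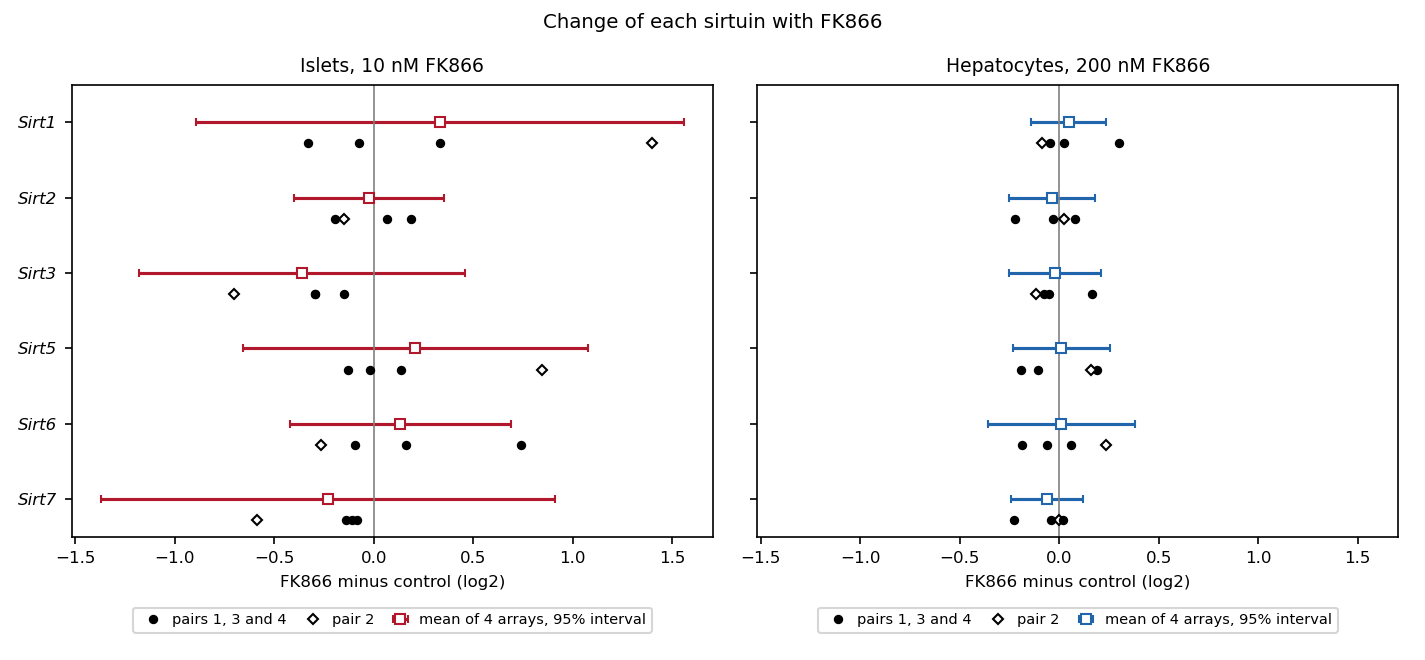
FK866 minus control log2 difference (horizontal axis) of each sirtuin in islets at 10 nM and hepatocytes at 200 nM, with the 95% interval of limma (squares) and the difference of each same-numbered pair below it (pair 2 as open diamonds). All intervals cross 0, the islet intervals are wider than the hepatocyte ones, and the islet pairs of Sirt3 and Sirt7 all lie left of 0.

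The FK866 difference in islets minus that in hepatocytes was tested as an interaction, with doses that differ between the tissues. No sirtuin was called and 0 of 10046 genes were (0%), with 180 at an unadjusted p under 0.05. The estimate furthest from 0 was that of Sirt3, at -0.35 (-1.18 to 0.49). Without the arrays numbered 2 no sirtuin was called, and Sirt3 stood at -0.26 (-0.63 to 0.11).

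By the means of the 4 groups, Sirt3 was thus ordered from control islets through FK866 islets to both hepatocyte groups. The Sirt3 values of control and FK866 islets overlapped. For Sirt2 the means of both islet groups came before those of both hepatocyte groups. Within a treatment the difference between tissues was called for both genes, and the FK866 difference within a tissue was called for neither. For Sirt1, Sirt5, Sirt6 and Sirt7 no such difference was called with all 4 arrays of a group and the brightest probe. Differences between groups unlike in both tissue and treatment were not tested.

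For each sirtuin the 3 genes with the most similar pattern over the 16 arrays were taken from 8735 genes by Pearson correlation, as a description of arrays that share 2 tissues and 2 outlying arrays. Sirt3 was most like Cdkn1c, Nod1 and Adam23 (r = 0.989, 0.986 and 0.983), and without the 2 outlying arrays these were 0.969, 0.962 and 0.965. Sirt1 was most like Ndel1, Ubr7 and Stag2 (0.974, 0.971 and 0.968), and Sirt5 most like Pnpla8, D3Ucla1 and Tfb1m (0.972, 0.972 and 0.966). Sirt2 was most like Zfp748, Olfm4 and Traf3ip2 (0.928, 0.923 and 0.922), and Sirt6, whose probe was dim, reached lower values with Tsen15, Tmem134 and Smyd2 (0.891, 0.880 and 0.861). The likeness of Sirt7 to Ppox, Ccdc84 and Eif2b2 (0.985, 0.984 and 0.981) leaned on the outlying arrays, falling to 0.719, 0.901 and 0.637 over the other 14.

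The genes around the sirtuins were taken as lists: other deacetylases, regulators, substrates and partners, and the genes that make or use NAD. In the fits without a block FK866 called none of their members in either tissue. Between control islets and control hepatocytes many were called, in both directions, as for genes in general. The counts from all arrays below are to be read against all genes tested. Of these 35.0% were called higher in control islets and 31.1% lower, with a median log2 difference of 0.08. Counts without the arrays numbered 2 are to be read against the fit without them. That fit called 76.3% of 9816 genes, 41.2% as higher in control islets and the rest of the calls as lower, with a median of 0.09. Differences of the lists from these shares were not tested.

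Of 9 zinc-dependent deacetylases tested, 5 were higher in control islets and none lower, with a median log2 difference of 0.77. Hdac11 led at 3.57 (SE 0.38, limma adjusted p = 4.90e-07), followed by Hdac6, a cytosolic deacetylase that shares tubulin as a substrate with SIRT2, at 3.08 (SE 0.39, limma adjusted p = 3.79e-06). Without the arrays numbered 2, 4 were higher and 2 lower (median 0.61). Of 15 sirtuin regulators, 3 were higher and 5 lower (median -0.36), and 5 and 8 without the arrays numbered 2 (median -0.53). Hic1, a repressor of Sirt1 transcription, was detected on no islet array and was at least 1.67-fold higher in control hepatocytes, whereas its relative Hic2 was detected on no hepatocyte array and was at least 2.67-fold higher in control islets. A bound sets the mean of the bright group against a mean over the dim arrays. Each dim array gave the weakest signal of any detected probe, or the gene's own signal where that was higher. The bounds are of means and carry no interval.

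Of 33 nuclear substrates and partners, 9 were higher in control islets and 7 lower, with a median of -0.04. There were 12 higher and 12 lower without the arrays numbered 2 (median -0.01). Trp53, which encodes the SIRT1 substrate p53, differed by -2.17 (SE 0.15, limma adjusted p = 3.65e-09) and Per2, a clock repressor, by 2.54 (SE 0.20, limma adjusted p = 1.85e-08). Ppargc1b, a coactivator of mitochondrial genes, differed by 1.76 (SE 0.22, limma adjusted p = 3.37e-06). The Sirt6 and Sirt7 partners and targets had 4 higher and 10 lower of 23 (median -0.32), and 3 and 11 without the arrays numbered 2 (median -0.32), among them the glycolytic genes Ldha at -7.12 (SE 0.57, limma adjusted p = 1.55e-08) and Pfkm at 1.54 (SE 0.19, limma adjusted p = 2.35e-06).

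Of 28 substrates of the mitochondrial sirtuins, 3 were higher in control islets and 14 lower (median -0.55), against 35.0% and 31.1% of all genes. Leaving out the arrays numbered 2, 4 were higher and 14 lower (median -0.32). Cps1, the urea cycle enzyme named above, was detected on no islet array and was at least 3.02-fold higher in control hepatocytes. Acadm, of fatty acid oxidation, differed by -2.89 (SE 0.29, limma adjusted p = 3.02e-07). Idh2, a mitochondrial source of NADPH and a SIRT3 substrate, was higher in islets, by 1.75 (SE 0.20, limma adjusted p = 9.23e-07).

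Of 9 NAD supply genes tested, 1 was higher and 5 lower in control islets (median -1.36), against 35.0% and 31.1% of all genes, and 1 and 5 of 8 without the arrays numbered 2 (median -1.41). Kynu and Qprt, of the route from tryptophan, were detected on no islet array, and control hepatocytes exceeded control islets at least 17.4-fold for Kynu and at least 13.6-fold for Qprt. Nadk, which makes NADP, differed by -1.42 (SE 0.15, limma adjusted p = 3.57e-07). Of 14 other NAD consumers and nicotinamide-clearing genes, 5 were higher and 7 lower (median -0.61), and 4 and 6 of 11 without the arrays numbered 2 (median -1.18). Nnmt, which methylates nicotinamide, was at least 170-fold higher in control hepatocytes, and Parp8 at least 5.17-fold higher in control islets.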

How the data were processed

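Members, lists and tests were chosen with earlier results of these data known. The deposited intensities are linear; their negative values show that a background had been subtracted, and their array medians differ as in data not yet normalized. Beside each signal the authors deposited a detection p-value. The deposited gene table holds a score per symbol, by its values the log10 signal centred and scaled in each array, and not the expression values the design had allowed for. It therefore served for naming and as an alternative scale. Which scanner software and annotation the authors used is not stated in the labels.

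The 25697 probes carry no symbol and were named by matching log10 signals to the scores within 1e-08, which named 23925 probes for 16558 of 18111 symbols. Up to 15 probes per symbol were searched, a limit widened after results had been seen; no sirtuin's call changed with it. Islet scores of 5014 rows stood 1 row away from their symbol; no sirtuin row is among them.

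Signals were corrected and quantile normalized with neqc of limma 3.58.1 (offset 16) in R 4.3.3, within a tissue for FK866 and over all 16 arrays otherwise. A gene is its brightest probe. Genes detected (p under 0.05) on at least 4 arrays were fitted with lmFit and eBayes, without a block. The number of arrays limits the precision. The limma code was tested on simulated data with independent noise, which held no outlying or paired arrays and so does not cover these features. Sirtuins were always named, with their 3 most similar genes and, per list, up to 4 called genes with the smallest adjusted p, of which the text gives a part; the result of 1 gene is left out and not reported here. In both tissues, same-numbered arrays correlated in their deviations from the group means (0.383 to 0.614 in hepatocytes, 0.528 to 0.927 in islets), each over the 0.1 set for pairing. Hepatocyte arrays of different number correlated between -0.371 and 0.0804, so there the numbers pair the arrays, from the data. Islet arrays of different number correlated between -0.849 and 0.668, so the 0.1 does not tell islet pairs from other arrays. The islet pairing was taken from the numbers and is not shown by these correlations. FK866 islet array 3 correlated more with control arrays 4 and 1 than with control array 3. Across tissues the correlations were -0.11 to 0.08 and the numbers pair nothing. Naming and figures used Python 3.11.15.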

Additional observations from a re-analysis of the deposited data

Results flagged for a closer look

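Each of the 6 sirtuins was checked in each of the 4 groups, which made 24 checks of 4 arrays. In 5 of them, 1 array lay further from the others than Dixon's ratio of gap to range allows. All 5 fell on arrays numbered 2. Chance alone flags about 1 in 20 independent checks, but these checks share the same arrays and are not independent. Values are log2 signals normalized within a tissue. Sirt1 on control islet array 2 was 6.70, against 8.79 to 9.12 on the other 3 (ratio 0.8649). Sirt5 on the islet arrays numbered 2 was 8.25 with FK866, against 8.91 to 8.97 (ratio 0.923), and 7.41 in the control, against 8.77 to 9.06 (ratio 0.8291). Sirt7 on control islet array 2 was 13.20, against 11.19 to 11.52 (ratio 0.835). Sirt6 on FK866 hepatocyte array 2 was 6.71, against 6.01 to 6.09 (ratio 0.888), on a probe near background.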

How the results depend on the processing

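In 9 other settings no sirtuin was called with FK866 and none in the interaction. The replicate block called 0 sirtuins in both tissues and the interaction and 2 in each tissue comparison; it changed no sirtuin's call, while all genes called with FK866 in islets were 4, against 0 without it, and 4 in the interaction. With arrays scaled to their median and no quantile step, 1 sirtuin (Sirt3) was called in each tissue comparison, the FK866 differences of Sirt2 and Sirt3 in hepatocytes were 0.015 and 0.022 and the interaction of Sirt2 was -0.028. With the mean of a gene's probes, 3 sirtuins were called in each tissue comparison, Sirt6 among them (0.49 among controls, 0.44 with FK866), and Sirt6 differed by -0.036 with FK866 in islets and by -0.048 in the interaction. On the deposited scores, control islets minus control hepatocytes was -0.013 for Sirt1 and -0.0041 for Sirt5, and the interaction of Sirt2 was -0.0020. Other probes, tried after seeing the data, gave -0.045 for Sirt5 between control tissues, and -0.57 and -0.64 for Sirt6 with FK866 in islets and in the interaction. Requiring detection on every array, the genes called between tissues were 3905 among controls and 3747 with FK866, since fewer were tested. On the scores 2 hepatocyte genes were called with FK866.

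Leaving out arrays, the sirtuins called between tissues ranged from 1 to 4 among controls, with 4 without control islet array 2, and from 0 to 5 with FK866, with 0 without the arrays numbered 1 and 5 without those numbered 2. The cause was not tested. The log2 differences with FK866 in hepatocytes ranged from -0.037 to 0.093 for Sirt1, -0.11 to 0.024 for Sirt2, -0.083 to 0.046 for Sirt3, -0.064 to 0.092 for Sirt5 and -0.15 to 0.10 for Sirt6. In islets they ranged from -0.24 to 0.56 for Sirt1, -0.11 to 0.044 for Sirt2, -0.17 to 0.38 for Sirt5, -0.063 to 0.28 for Sirt6 and -0.57 to 0.23 for Sirt7, and for Sirt3 from -0.57 to -0.034. The interaction ranged from -0.29 to 0.59 for Sirt1, -0.12 to 0.082 for Sirt2, -0.19 to 0.36 for Sirt5, -0.10 to 0.34 for Sirt6 and -0.52 to 0.29 for Sirt7. Islets minus hepatocytes ranged from -0.16 to 0.65 for Sirt1 and -0.16 to 0.56 for Sirt7 among controls, and from -0.19 to 0.36 for Sirt7 with FK866. Signal over background limits Sirt6 most.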
